A study of Mus musculus with 17 samples.

Results

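The RNA sequencing libraries labelled MDMs, the abbreviation the study uses for monocyte-derived macrophages, were compared between KLG4 and KL mice. They were 4 of the 17 samples of the series, 2 KL and 2 KLG4 libraries. Every gene with at least 1 RPKM (read density per kilobase of gene, scaled to the depth of the library) in at least 2 of the 4 libraries was included, which left 10475 of the 13407 genes listed. The study follows lung tumors in which Gpx4, the enzyme that reduces lipid hydroperoxides in membranes and so prevents ferroptosis, is removed from the tumor cells, and it sorted tumor cells and macrophages from the same kind of lungs. The comparison asks how libraries with this label differ between such tumors and tumors that keep Gpx4.

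KL mice were of the genotype KrasLSL-G12D/+Lkb1fl/fl, and KLG4 mice of the genotype KrasLSL-G12D/+Lkb1fl/flGpx4m/m. Lkb1 is another name of the gene Stk11. Both groups received Ad-Cre, an adenovirus that carries Cre recombinase, through the nose and then tamoxifen, and the cells were primary cells of tumor-bearing lungs taken 10 weeks after the virus. Per the methods of the study, mice were infected as young adults and matched for age and sex. By their genotypes, KLG4 mice differed from KL mice by the modified Gpx4 allele alone, in which exons of Gpx4 are flanked by rox sites and followed by a Dre recombinase cassette with a CAG promoter that Cre switches on. That allele was present in every cell of a KLG4 mouse, macrophages included, whereas its recombination was designed for tumor cells. How many mice went into a library and the gate that defined MDMs were not given in the sources used here.

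Monocytes leave the blood at sites of injury and in tumors and become macrophages there, which clear debris, present antigen on MHC class II and take up very different programs depending on the signals they meet. Interferon gamma drives one well-known program, with guanylate-binding proteins, CXCL9 and CXCL10. Interleukin-4 and interleukin-13 drive another, called alternative activation, with RELMα (Retnla) and the eotaxin CCL24 among its mouse marker genes.

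The 2 KL libraries were far less alike than the 2 KLG4 libraries, so each KL library is shown on its own. The depth was 18.6 and 10.4 M (megareads) in KL replicates 1 and 2, and 26.1 and 26.0 M in KLG4 replicates 1 and 2. Across genes, the correlation of log2 levels was 0.914 within the KL pair and 0.982 within the KLG4 pair. KL replicate 1 correlated with the KLG4 libraries at 0.968 and 0.967, and KL replicate 2 at 0.897 and 0.900. Of the genes compared, 20.8% lay at least 2-fold apart between the KL libraries, against 2.84% between the KLG4 libraries. KL replicate 2 held 1286 genes at least 2-fold above or below all 3 other libraries, KL replicate 1 held 148, and the KLG4 replicates held 78 and 69. Mitochondrially encoded genes took 1.35% and 3.36% of reads in KL replicates 1 and 2 and 0.494% and 0.661% in KLG4. Xist, the RNA of the inactive X chromosome, was at 21.8 RPKM in KL replicate 1, 0.839 RPKM in KL replicate 2 and 19.4 RPKM in each KLG4 library, so that KL replicate 2 also stood apart in this marker of female cells. The labels name no source for these differences, and their part in the results below was not tested.

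The label was checked against defining markers, and the data went partly against it. Transcripts of neutrophils were among the most abundant of all. S100a9, a calcium-binding alarmin of neutrophils and monocytes, was at 21106 and 9379 RPKM in KL replicates 1 and 2 and at 17917 and 16080 RPKM in KLG4, and its mean level was the highest among named genes outside the mitochondrial genome. Csf3r, the G-CSF receptor, was at 228 and 208 RPKM in KL and 283 and 323 RPKM in KLG4. All 10 neutrophil markers were at 1 RPKM or more in every library, Ly6g (5.52 to 7.94 RPKM) and the granule gene Ltf among them. The levels of the 10 genes summed to 23751 and 10745 RPKM in KL and to 20142 and 18268 RPKM in KLG4, against 92.1 to 240.2 RPKM in the 4 libraries labelled TRMs (tissue-resident macrophages), whose table had been normalised separately.

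Macrophage markers were present as well. Csf1r, the receptor of the macrophage growth factor, was at 24.3 and 35.3 RPKM in KL and 36.9 and 41.2 RPKM in KLG4. Adgre1, which encodes F4/80, was at 10.2 and 13.7 RPKM in KL and 16.7 and 21.9 RPKM in KLG4. The 18 markers of macrophages summed to 2720 and 3996 RPKM in KL and to 2881 and 2818 RPKM in KLG4, less than in the TRM libraries (6536 to 7828 RPKM, likewise from the separately normalised table). Ly6c2, the antigen of classical monocytes, did not reach 1 RPKM in any library, and Ccr2 was at 1.31 and 8.70 RPKM in KL and 3.65 and 2.60 RPKM in KLG4. Most of the 14 monocyte markers were present, with 11 to 13 at 1 RPKM or more in each library. They summed to 1204 and 977 RPKM in KL and to 1405 and 1442 RPKM in KLG4. That was more than in the TRM libraries (216 to 554 RPKM). Of the T cell and NK cell markers, 1 of 20 was listed in the table and none passed the filter. The libraries are therefore called by their label, and no other cell type name is given to them.

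**Figure D1:**
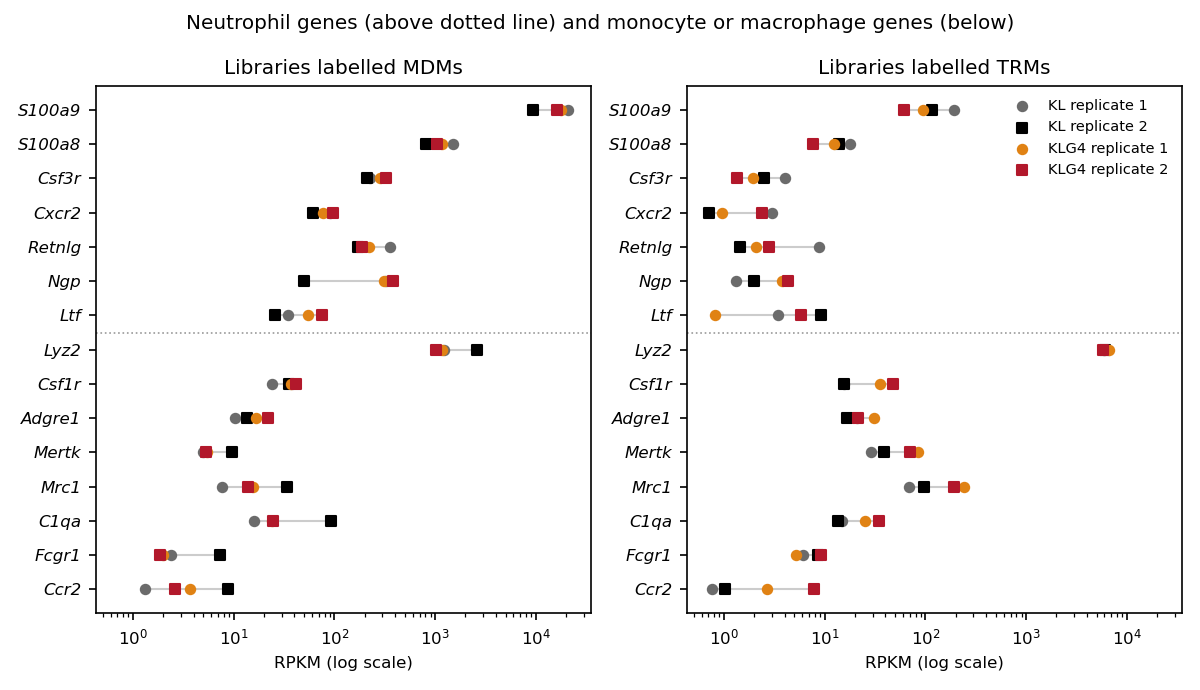
Levels of macrophage, monocyte and neutrophil markers in the libraries labelled MDMs and, from a separately normalised table, in those labelled TRMs; each point is 1 library and the RPKM axis is logarithmic. The neutrophil genes S100a9, Csf3r and Ngp lie at 49.7 RPKM or more in every MDM library.

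No gene passed an adjusted p of 0.05 in limma (percent called 0), where the smallest adjusted p was 0.679, although 706 genes had an unadjusted p under 0.05, and limma-voom on recovered reads gave 671 at the unadjusted level and 0 adjusted. At the threshold the study used, an unadjusted p under 0.05 with at least 2-fold, 108 genes were higher in KLG4 (1.03% of the 10475) and 322 were lower (3.07%), 4.11% together. Here and below the p at this threshold is that of limma, whereas the study names DESeq2 for its own comparisons. Both KLG4 values exceeded both KL values for 2659 genes (25.4%) and lay below both for 2001 genes (19.1%). A gap of at least 2-fold between every KLG4 and every KL library was found for 36 genes in the higher direction (0.344%) and 139 in the lower (1.33%). A gene that passed the filter through 1 group alone had to differ, which held for 223 genes that reached 1 RPKM in the KL libraries only and for 98 in the KLG4 libraries only. Of the other 10154 genes, 76 were higher and 216 lower at the study threshold. The median difference over all genes was 0.02 on the log2 scale, 0.06 against KL replicate 1 and -0.02 against KL replicate 2.

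The outcome of the adjusted test turned on which KL library was kept. Without KL replicate 1, 2682 genes passed an adjusted p of 0.05 in limma, with the lone KL replicate 2 assumed to vary as the KLG4 libraries do. Without KL replicate 2 the count was 0, with 1452 genes at an unadjusted p under 0.05. Counts at the study threshold were 2087 without KL replicate 1 and 487 without KL replicate 2, and they were 184 and 213 without KLG4 replicates 1 and 2. The genes described below as higher or lower are therefore differences at the unadjusted level between 2 and 2 libraries, and their p-values measure the spread between these samples only, since no label says that the replicates are separate animals. An exact permutation test of 2 against 2 libraries cannot go below p = 0.333.

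Among the genes that the naming rule takes in the higher direction, Sbno2 and Ccl24 had the widest gaps. Sbno2 encodes a transcriptional co-regulator that is induced through interleukin-10 and STAT3 in myeloid cells. It was at 69.3 and 67.8 RPKM in KL replicates 1 and 2 and at 347.1 and 332.7 RPKM in KLG4, with means of 68.6 ± 1.02 and 339.9 ± 10.1 RPKM (SD, n = 2). The KL libraries were almost equal and the groups lay far apart, by 2.31 on the log2(RPKM + 0.1) scale with a standard error of 0.18 (4.95-fold, adjusted p = 0.679 in limma).

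Ccl24 encodes eotaxin-2, a chemokine that attracts eosinophils. It was at 5.41 and 7.44 RPKM in KL and at 37.0 and 32.4 RPKM in KLG4, a difference of 2.43 with a standard error of 0.25 (5.39-fold, adjusted p = 0.679 in limma). Retnla, a secreted protein of alternatively activated macrophages, was at 4.32 and 1.93 RPKM in KL and 10.4 and 15.9 RPKM in KLG4 (2.11, SE 0.47), 1.55 above KL replicate 1 and 2.67 above KL replicate 2 on the log2 scale. For these 3 genes each KLG4 library was above each KL library, and the study threshold was met in all 14 alternatives tried.

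**Figure D2:**
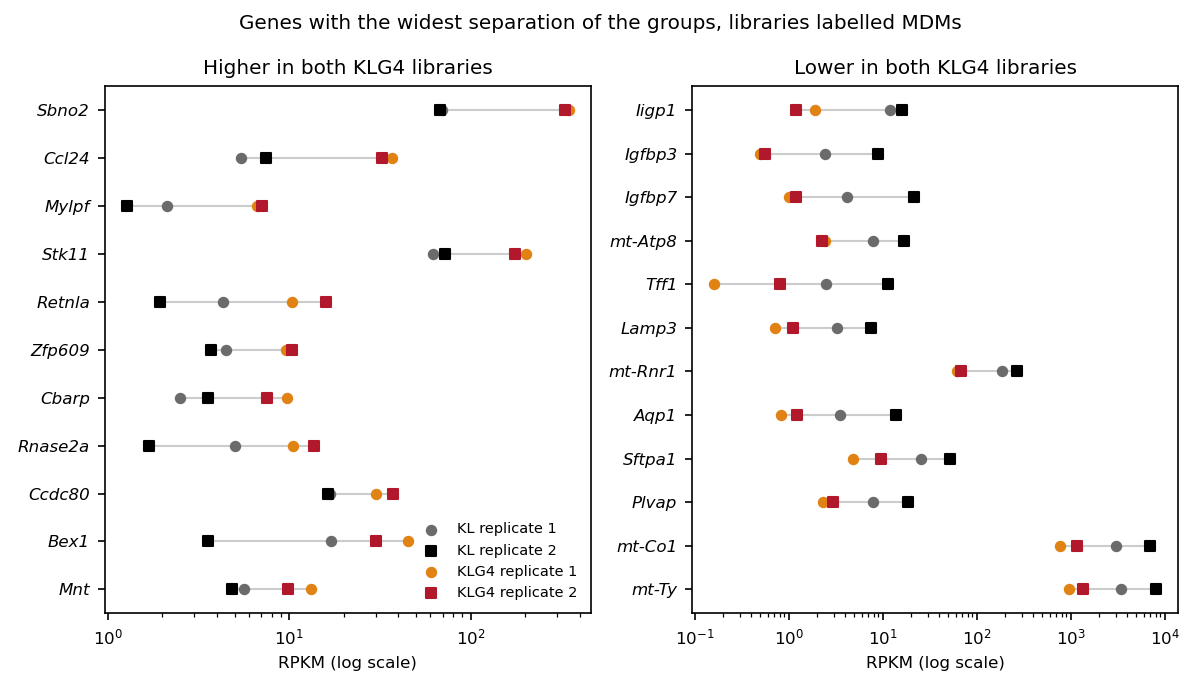
RPKM (logarithmic axis) in each library of 11 genes in the higher and 12 in the lower direction that separated the groups most widely. The KLG4 points lie to the right of the KL points for the higher genes, Sbno2 and Ccl24 with the widest gaps, and to the left for the lower genes, led by Iigp1.

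Other wide gaps were those of Stk11 and Cbarp, described below with the Gpx4 locus, Mylpf and Zfp609. Mylpf, a myosin light chain of fast skeletal muscle, was at 2.13 and 1.27 RPKM in KL and 6.65 and 7.09 RPKM in KLG4 (1.99 on the log2 scale). Zfp609, a zinc finger protein, was at 4.49 and 3.69 RPKM in KL and 9.54 and 10.3 RPKM in KLG4 (1.26). Next came Rnase2a, Ccdc80, Bex1 and Mnt, and the groups did not overlap in any of them. Rnase2a, of the eosinophil-associated ribonuclease family, had 5.03 and 1.69 RPKM in KL and 10.5 and 13.8 RPKM in KLG4 (2.00), and reads of this family can be shared between near-identical copies. Ccdc80, an extracellular matrix protein, rested on an even KL pair of 16.8 and 16.4 RPKM against 30.2 and 37.2 RPKM (1.01). Bex1, a small X-linked signalling adaptor, was uneven in KL at 17.1 and 3.58 RPKM, against 45.3 and 30.1 RPKM in KLG4 (2.22). Mnt, a repressor that partners MAX and opposes MYC, was at 5.60 and 4.85 RPKM in KL and 13.2 and 9.80 RPKM in KLG4 (1.11). Several of these did not hold without 1 KLG4 library. Without KLG4 replicate 1 the unadjusted p in limma was 0.0618 for Cbarp, 0.107 for Bex1 and 0.120 for Mnt. Without KLG4 replicate 2 it was 0.0587 for Zfp609, 0.0676 for Rnase2a, 0.0976 for Ccdc80 and 0.0501 for Bex1. Without KL replicate 2 the difference of Ccdc80 was 0.99, just under 2-fold.

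In the lower direction the widest gap was that of Iigp1, an interferon-inducible GTPase that acts on the vacuoles of intracellular parasites. It was at 12.03 and 16.1 RPKM in KL and at 1.91 and 1.18 RPKM in KLG4, a difference of -3.13 with a standard error of 0.33 (8.76-fold lower, adjusted p = 0.679 in limma). Its direction and size were alike against either KL library, at -2.92 and -3.34. Another 7 of the 12 were Igfbp3, Igfbp7, Tff1, Lamp3, Aqp1, Sftpa1 and Plvap, of which Igfbp3 and Tff1 passed the filter through KL alone, and mitochondrially encoded transcripts were the last 4, mt-Atp8, mt-Rnr1, mt-Co1 and the tRNA gene mt-Ty next to it. In these 11 genes KL replicate 2 was the highest library. Sftpa1, surfactant protein A of alveolar type II (AT2) cells, was at 25.7 and 52.1 RPKM in KL and 4.78 and 9.65 RPKM in KLG4 (-2.41, SE 0.50). Plvap, of the diaphragms of endothelial fenestrae and caveolae, was at 7.92 and 18.4 RPKM in KL and 2.32 and 2.94 RPKM in KLG4 (-2.17, SE 0.46). The 12 genes passed the study threshold in every alternative in which they were tested.

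Around Gpx4, many genes were higher in KLG4. Of the 34 genes listed for this neighbourhood on chromosome 10, 24 had values and 19 passed the filter. Both KLG4 libraries were above both KL libraries for 13 of the 19 (25.4% over all genes) and below both for 3 (19.1%), and the median difference was 0.43 against 0.02 over all genes, 0.47 against KL replicate 1 and 0.50 against KL replicate 2. At the study threshold, 3 were higher and 0 lower (1.03% and 3.07% over all genes).

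Gpx4 itself (GRCm38, chromosome 10, 80047166 to 80056439, plus strand) is protein-coding, and its value covers the whole gene, the exons that the design removes included. The difference was 0.76 with a standard error of 0.28 (adjusted p = 0.679 in limma) and the levels were 44.9 and 71.3 RPKM in KL and 93.6 and 97.7 RPKM in KLG4. It came to 1.09 against KL replicate 1 and 0.42 against KL replicate 2, and it reached the study threshold only without KL replicate 2. Sbno2, on the opposite strand at 80056992 to 80105571, ends 552 bases from the end of Gpx4, so reads running past either gene could be counted for the other where strand was not used.

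Stk11 (80115803 to 80130682, plus strand) encodes the kinase LKB1, a tumor suppressor that activates AMPK, and both groups carry its floxed alleles. It was at 62.3 and 72.6 RPKM in KL and at 203 and 177 RPKM in KLG4, a difference of 1.49 with a standard error of 0.20 (2.81-fold, adjusted p = 0.679 in limma). The next gene, Cbarp, a regulator of calcium channel beta subunits, was at 2.49 and 3.57 RPKM in KL and 9.74 and 7.52 RPKM in KLG4 (1.49). Cbarp shares 232 bases with Stk11 and 2204 bases with Atp5d on the other strand, so its value is uncertain in counts made without strand. Midn, midnolin, a nuclear protein, was at 13.1 and 13.9 RPKM in KL and 25.4 and 23.4 RPKM in KLG4 (0.85, SE 0.19), and Hmha1 was at 69.9 and 67.2 RPKM against 115 and 113 RPKM (0.73, SE 0.18). Farther along, Ndufs7, Rps15 and Mbd3 were the genes with both KLG4 libraries below both KL libraries, by -0.59 to -0.66.

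**Figure D3:**
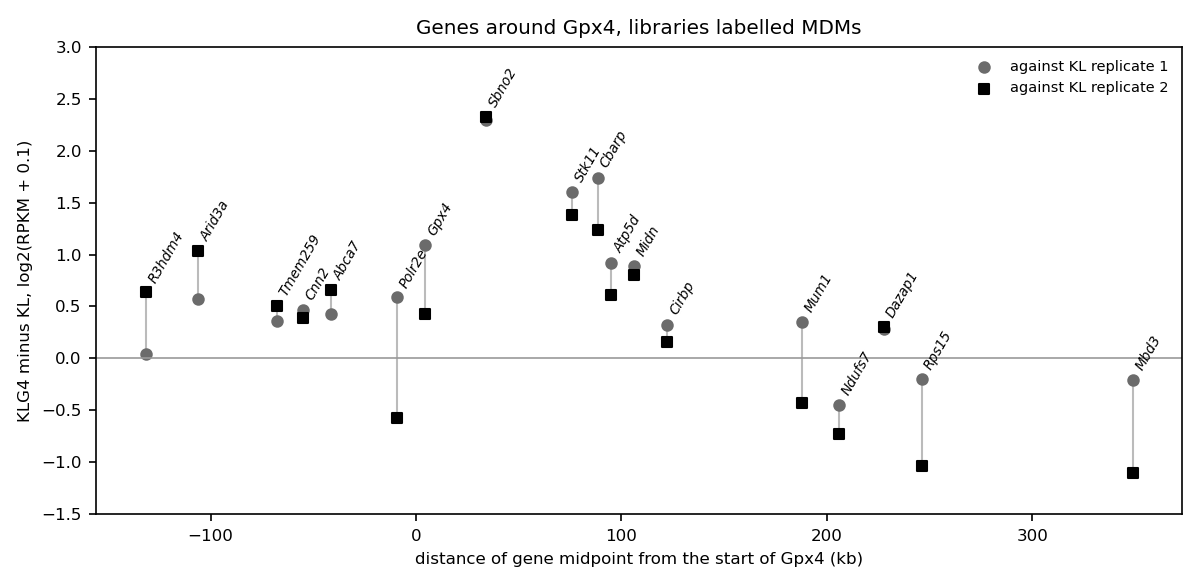
Difference between the mean of the KLG4 libraries and each KL library in log2(RPKM + 0.1) for the tested genes of the Gpx4 neighbourhood list with coordinates, against the distance of the gene midpoint from the start of Gpx4 in kb, drawn for each KL library. Sbno2 stands highest at 2.29 and 2.32 for the KL replicates in turn, Stk11 and Cbarp follow, and Ndufs7, Rps15 and Mbd3 lie below 0 against both.

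Several genes of alternative activation were higher in KLG4. Of 19 on the list, 16 had values and 13 were tested, and 7 of the 13 were above both KL libraries in both KLG4 libraries (25.4% over all genes) and 1 below (19.1%). At the study threshold 3 were higher, Retnla and Ccl24 described above among them, and 1 was lower (1.03% and 3.07% over all genes). The lower gene was Lyve1, a hyaluronan receptor of resident tissue macrophages and lymphatic endothelium, at 2.51 and 5.61 RPKM in KL and 1.42 and 1.41 RPKM in KLG4 (-1.35). The median was 0.30, 0.53 against KL replicate 1 and 0.28 against KL replicate 2. The receptor and signalling genes lay close between groups, with Il4ra at 55.4 and 49.6 RPKM in KL and 57.5 and 63.3 RPKM in KLG4, and Stat6 differing by 0.30 (SE 0.21). Mrc1, the mannose receptor, overlapped between groups because the KL libraries lay on both sides, at 7.58 and 33.8 RPKM, of the KLG4 libraries at 15.4 and 14.0 RPKM. Chil3, a chitinase-like secreted protein, was at 619 and 853 RPKM in KL and at 891 and 892 RPKM in KLG4 (0.29). Pdcd1lg2, which encodes the PD-1 ligand PD-L2, was at 8.74 and 3.87 RPKM in KL against 10.5 and 11.2 RPKM in KLG4 (0.89, SE 0.43).

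In the IL10-STAT3 list, in which Sbno2 is a member, 6 of 14 were above and 2 below both KL libraries (25.4% and 19.1% over all genes), with a median of 0.13 against KL replicate 1 and 0.23 against KL replicate 2. Il6ra, the interleukin-6 receptor, differed by 0.81 (SE 0.22) from 4.06 and 4.74 RPKM to 7.66 and 7.91 RPKM. Il10 (2.43 and 3.83 RPKM in KL, 3.10 and 2.96 RPKM in KLG4) overlapped between groups, and Socs3, the STAT3 feedback inhibitor, was the other way at 323 and 253 RPKM in KL and 207 and 235 RPKM in KLG4 (-0.37). Sbno2 was the only member past the study threshold among the 14 (1.03% of all genes were higher at it).

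The matrix and growth factor list holds 3 ligands of the EGF receptor. Areg, amphiregulin, was at 35.8 and 80.7 RPKM in KL and 12.7 and 16.3 RPKM in KLG4 (-1.90, SE 0.44). Ereg, epiregulin, was at 2.96 and 3.36 RPKM in KL and 0.716 and 0.931 RPKM in KLG4 (-1.83, SE 0.31), and it passed the filter through KL alone. Hbegf, the heparin-binding ligand, was at 21.3 and 19.9 RPKM in KL and 35.5 and 49.4 RPKM in KLG4 (1.02, SE 0.24). The groups did not overlap in these 3, as in 44.5% of all genes, and the adjusted p in limma was 0.679 for each.

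Among other secreted factors, Thbs1, thrombospondin 1, an activator of TGF-beta that restrains vessel growth, was at 134 and 265 RPKM in KL and 453 and 377 RPKM in KLG4 (1.13, SE 0.38). It differed by 1.63 from KL replicate 1 and by 0.64 from KL replicate 2. Vegfa, which drives vessel growth, was at 169 and 254 RPKM in KL and 375 and 292 RPKM in KLG4 (0.68, SE 0.29). Spp1, osteopontin, was at 309.7 and 274 RPKM in KL and 448 and 355 RPKM in KLG4 (0.45). Over the whole list of matrix and growth factor genes, 6 of 20 tested were above and 3 below both KL libraries (25.4% and 19.1% over all genes), with 2 higher and 2 lower at the study threshold (1.03% and 3.07%). The median of the list was 0.20 against KL replicate 1 and 0.22 against KL replicate 2, 0.30 against both, and 0.04 without KLG4 replicate 1.

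The interferon-stimulated genes set the KL libraries apart from each other more than they set KLG4 apart from KL. Of 35 genes on the list, 34 had values and 32 were tested, and 26 of the 32 were at least 2-fold higher in KL replicate 1 than in KL replicate 2 (8.28% over all genes). KL replicate 1 was the highest of the 4 libraries for 29 of the 32 (15.9% over all genes). The median difference of KLG4 was -1.32 against KL replicate 1 and 0.54 against KL replicate 2, and -0.38 against both.

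Gbp2, a guanylate-binding protein, was at 1053 and 67.4 RPKM in KL replicates 1 and 2, a ratio of 15.6, and at 305 and 156 RPKM in KLG4. Cxcl10, a ligand of CXCR3 on T cells, was at 42.5 and 5.31 RPKM in KL and 8.59 and 6.65 RPKM in KLG4. Isg15, a ubiquitin-like modifier, was at 203 and 45.8 RPKM in KL and 68.6 and 47.0 RPKM in KLG4. In each of them the groups overlapped. Mx1 went against the list, with 1.00 and 3.89 RPKM in KL and 1.10 and 0.696 RPKM in KLG4.

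Both KLG4 libraries were below both KL libraries for 4 of the 32 (19.1% over all genes), and 3 of these met the study threshold (3.07%). They were Iigp1, given above, Cxcl9 and Bst2. Cxcl9, another ligand of CXCR3, was at 21.5 and 13.5 RPKM in KL and 5.77 and 4.54 RPKM in KLG4 (-1.71, SE 0.32). Bst2, or tetherin, which holds enveloped viruses at the cell surface, was at 20.8 and 21.98 RPKM in KL and 9.81 and 8.21 RPKM in KLG4 (-1.24, SE 0.21). KL replicate 2 was slightly the higher of the KL libraries for Iigp1 and Bst2, whereas Cxcl9 was higher in KL replicate 1 like most of the list. None of the 32 was higher in both KLG4 libraries.

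The promoters of these genes were searched for the core of the interferon-stimulated response element, GAAA followed by any 2 bases and GAAA again, on both strands and allowing matches to overlap. RefSeq promoters (GRCm38.p6), 250 bases before to 50 after the start site, were found for 25 of the 32 tested genes, and 17 of them held the core (68%). The share was 4.10% over 7016 tested genes with a promoter and 3.99% over all 27025 genes with one. A match is a description of the sequence and not a site of binding. Below are shown Isg15 and Gbp2, which followed the order of the KL libraries, and Bst2 and Cxcl9, which were low in both KLG4 libraries. The core is in capitals, written on the gene's strand, so that TTTC, any 2 bases and TTTC is the core on the other strand. Isg15 holds 3 overlapping matches, Gbp2 1, Bst2 2 overlapping matches and Cxcl9 0 in this window. The promoter of Isg15 is chr4:156200769-156201068 (minus strand), that of Gbp2 chr3:142620413-142620712 (plus strand), that of Bst2 chr8:71537423-71537722 (minus strand) and that of Cxcl9 chr5:92328030-92328329 (minus strand).
Isg15: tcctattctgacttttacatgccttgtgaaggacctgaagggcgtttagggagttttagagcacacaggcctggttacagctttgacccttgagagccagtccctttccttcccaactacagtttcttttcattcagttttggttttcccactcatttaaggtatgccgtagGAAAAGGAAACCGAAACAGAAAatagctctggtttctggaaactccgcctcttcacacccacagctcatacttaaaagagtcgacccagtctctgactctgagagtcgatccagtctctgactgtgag
Gbp2: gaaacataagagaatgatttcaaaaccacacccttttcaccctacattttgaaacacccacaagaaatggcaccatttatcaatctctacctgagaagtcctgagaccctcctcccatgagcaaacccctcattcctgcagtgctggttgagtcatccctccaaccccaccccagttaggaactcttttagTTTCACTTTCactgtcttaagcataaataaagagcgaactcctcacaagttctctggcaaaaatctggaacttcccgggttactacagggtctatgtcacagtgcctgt
Bst2: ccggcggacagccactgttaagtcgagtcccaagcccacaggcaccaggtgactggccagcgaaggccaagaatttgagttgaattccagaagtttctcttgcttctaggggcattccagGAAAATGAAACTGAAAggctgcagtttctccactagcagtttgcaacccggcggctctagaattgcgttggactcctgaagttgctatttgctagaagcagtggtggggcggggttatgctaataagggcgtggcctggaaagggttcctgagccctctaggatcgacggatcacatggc
Cxcl9: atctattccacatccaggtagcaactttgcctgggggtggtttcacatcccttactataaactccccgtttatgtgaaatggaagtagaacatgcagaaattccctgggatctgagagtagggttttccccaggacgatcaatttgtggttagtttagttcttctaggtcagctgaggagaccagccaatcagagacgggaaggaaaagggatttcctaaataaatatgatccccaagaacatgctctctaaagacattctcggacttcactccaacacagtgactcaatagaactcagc

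MHC class I and immunoproteasome genes, which interferon gamma also induces, followed the same order of the KL libraries. KL replicate 1 was the highest of the 4 libraries for 13 of 15 (15.9% over all genes), and 7 of 15 were at least 2-fold above KL replicate 2 (8.28%). Nlrc5, the transactivator of class I genes, was at 36.9 and 3.05 RPKM in KL and 16.7 and 11.1 RPKM in KLG4. Tap1, of the peptide transporter, was at 42.8 and 6.48 RPKM in KL and 17.8 and 13.5 RPKM in KLG4. Psmb8, Psmb9, Psmb10, Psme1 and Psme2, subunits of the immunoproteasome and of its activator, were the 5 of 15 with both KLG4 libraries below both KL libraries (19.1% over all genes), and 0 of the 15 met the study threshold. Psmb8 was at 66.7 and 34.6 RPKM in KL and 32.6 and 24.7 RPKM in KLG4 (-0.76, SE 0.38). The median of the list was -0.84 against KL replicate 1 and 0.01 against KL replicate 2.

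MHC class II genes were nearer to the KLG4 libraries in KL replicate 1 than in KL replicate 2. Of 12 listed, 8 were tested, 7 of which had both KLG4 libraries below both KL libraries (19.1% over all genes) and 7 of which were at least 2-fold higher in KL replicate 2 than in KL replicate 1 (12.5% over all genes). The median difference was -0.96, but -0.30 against KL replicate 1 and -1.58 against KL replicate 2, and 0 of the 8 met the study threshold. H2-Aa, an alpha chain of MHC class II, was at 22.3 and 64.8 RPKM in KL and at 18.6 and 17.7 RPKM in KLG4 (-1.06, SE 0.54). Cd74, the invariant chain, was at 310.0 and 728 RPKM in KL and 259.9 and 268 RPKM in KLG4 (-0.85). H2-Ab1, a beta chain, overlapped, at 367 and 1072 RPKM in KL and 415 and 374 RPKM in KLG4.

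Other macrophage genes were high in KL replicate 2 as well. Of the 15 macrophage markers tested, 8 were at least 2-fold above KL replicate 1 there (12.5% over all genes) and 0 the other way, and the median difference of KLG4 was 0.24 against KL replicate 1 and -1.20 against KL replicate 2. C1qa, a chain of the complement component C1q, was at 15.96 and 92.7 RPKM in KL and 24.2 and 24.4 RPKM in KLG4. Cx3cr1, the fractalkine receptor, was at 5.07 and 42.0 RPKM in KL and 6.72 and 7.23 RPKM in KLG4. Apoe, the lipid carrier, was at 398 and 2074 RPKM in KL and 508 and 382 RPKM in KLG4. In each of these the KLG4 libraries lay far below KL replicate 2 and nearer to KL replicate 1. Of the 15 markers, 4 were above both KL libraries in both KLG4 libraries (25.4% over all genes), namely Csf1r, Adgre1, Itgam and Cd14 by 0.41 to 0.69, and 2 were below (19.1%), namely Lyz2, lysozyme, by -0.71 and the Fc receptor gene Fcgr1 by -1.09. In bulk libraries, fewer cells of a type and less of its RNA per cell cannot be told apart.

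Cell cycle genes showed the same dependence. Of 15 tested, 11 were at least 2-fold higher in KL replicate 2 than in KL replicate 1 (12.5% over all genes), and the median of KLG4 was -0.72 against both, 0.00 against KL replicate 1 and -1.64 against KL replicate 2. Birc5, survivin, which acts in chromosome segregation, was at 0.887 and 7.59 RPKM in KL and 0.643 and 1.14 RPKM in KLG4. Mki67, the gene of the Ki-67 antigen, did not follow the others and was at 15.8 and 15.6 RPKM in KL and 11.6 and 13.9 RPKM in KLG4 (-0.31, SE 0.21).

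**Figure D4:**
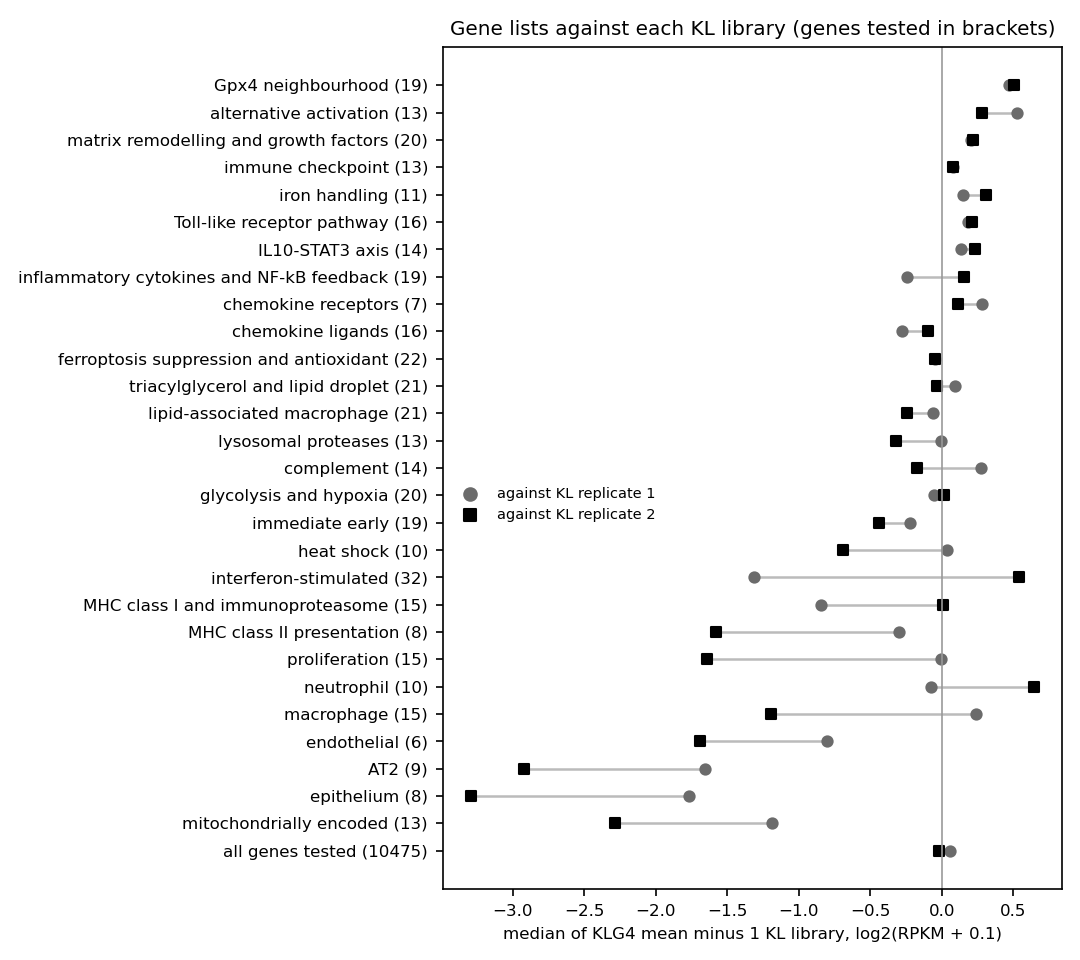
Median difference over the tested genes of each list between the mean of the KLG4 libraries and KL replicate 1 or KL replicate 2, in log2(RPKM + 0.1); the number of genes is in brackets. The interferon-stimulated list lies at -1.32 and 0.54 and the proliferation list at 0.00 and -1.64 for the KL replicates in turn, whereas the mitochondrially encoded list is below 0 against both, at -1.19 and -2.29.

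**Figure D5:**
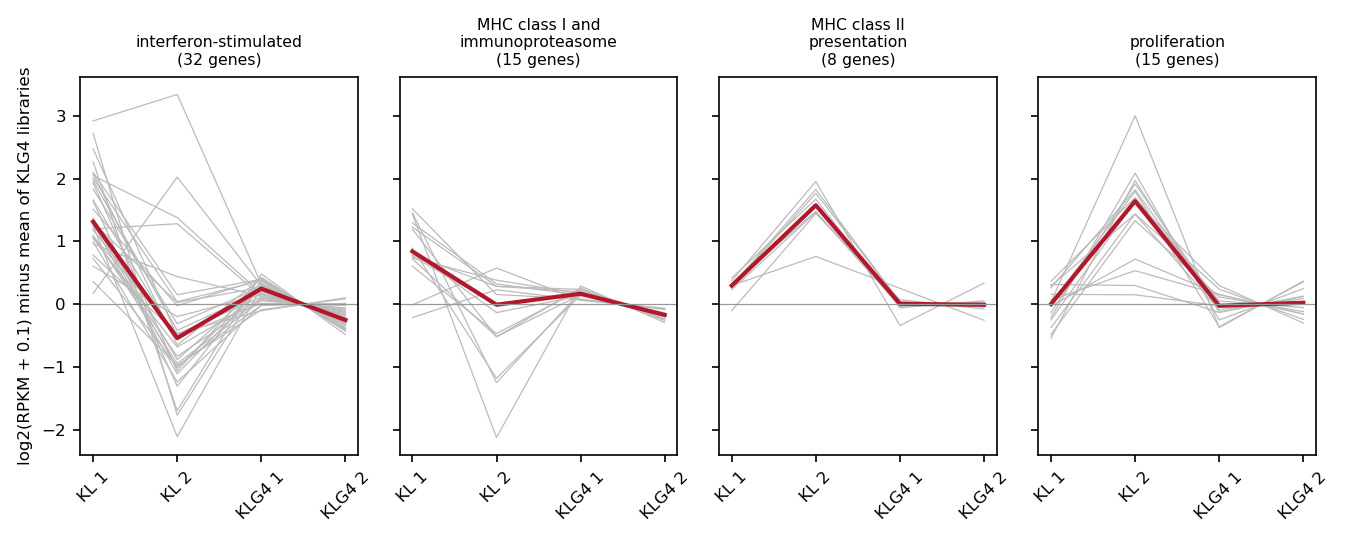
Level of each tested gene in each library as the difference from the mean of the KLG4 libraries, in log2(RPKM + 0.1), for 4 lists; grey lines are genes and the red line is the median. The interferon-stimulated and MHC class I lists peak in KL replicate 1 (median 1.32 for the former), and the MHC class II and proliferation lists in KL replicate 2 (medians 1.58 and 1.64).

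Neutrophil genes lay the other way between the KL libraries. Of 10, 5 were at least 2-fold higher in KL replicate 1 than in KL replicate 2 (8.28% over all genes), and 3 had both KLG4 libraries above both KL libraries (25.4% over all genes). Of these 3, Ltf and Camp were higher at the study threshold (1.03% over all genes). Ltf, lactoferrin, was at 34.8 and 25.8 RPKM in KL and 54.1 and 75.7 RPKM in KLG4 (1.09, SE 0.28). Camp, the cathelicidin antimicrobial peptide, was at 2.70 and 1.02 RPKM in KL and 4.45 and 10.1 RPKM in KLG4 (1.95, SE 0.62). Ngp, of the same granules, overlapped between groups, at 324 and 49.7 RPKM in KL and 312 and 384 RPKM in KLG4. The median over the list was 0.24, -0.08 against KL replicate 1 and 0.64 against KL replicate 2.

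No gene on the list of inflammatory cytokines and NF-kB feedback met the study threshold. Il1b, interleukin-1 beta, was at 2450.2 and 3239 RPKM in KL and at 2262 and 2102 RPKM in KLG4 (-0.37, SE 0.24). Its antagonist Il1rn was at 512 and 272 RPKM in KL and 588 and 776 RPKM in KLG4 (0.85, SE 0.37). Nfkb1, of the NF-kB family, was at 39.6 and 24.5 RPKM in KL and 58.5 and 61.2 RPKM in KLG4 (0.94, SE 0.29). Nos2, inducible nitric oxide synthase, was far apart in KL at 44.4 and 1.11 RPKM, with KLG4 between them at 10.8 and 13.1 RPKM. Of 19 tested, 4 were above and 3 below both KL libraries (25.4% and 19.1% over all genes), with a median of -0.24 against KL replicate 1 and 0.16 against KL replicate 2. Of 16 Toll-like receptor pathway genes tested, 7 were above and 0 below both KL libraries (25.4% and 19.1% over all genes), but the median was 0.18 against KL replicate 1 and 0.21 against KL replicate 2. Tlr9, which alone met the study threshold but passed the filter through KLG4 alone, was at 0.310 and 0.388 RPKM in KL and 1.16 and 1.28 RPKM in KLG4.

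Of the chemokine ligands, 16 were tested and 1 was above and 6 below both KL libraries (25.4% and 19.1% over all genes), and the study threshold was met by Ccl24 in the higher direction and by Cxcl9, Cxcl13 and Cxcl16 in the lower (1.03% and 3.07%). The median was -0.60, -0.28 against KL replicate 1 and -0.10 against KL replicate 2. Cxcl16, a scavenger receptor and ligand of CXCR6, was at 28.8 and 49.1 RPKM in KL and 19.4 and 16.7 RPKM in KLG4 (-1.06, SE 0.32). Cxcl13, which attracts B cells, was at 2.44 and 2.51 RPKM in KL and 1.00 and 0.869 RPKM in KLG4 (-1.32, SE 0.30). Ccl2, the chief attractant of monocytes, was at 14.9 and 13.1 RPKM in KL and 9.98 and 6.15 RPKM in KLG4 (-0.83, SE 0.31). Cxcl2, a neutrophil attractant and by far the most abundant ligand, hardly differed, at 4300.2 and 3320.2 RPKM in KL and 3719.7 and 3815 RPKM in KLG4. Among receptors, Cxcr4 was at 31.4 and 29.7 RPKM in KL and 44.5 and 41.6 RPKM in KLG4 (0.49).

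No immune checkpoint gene was higher at the study threshold. Havcr2, which encodes TIM-3, was at 55.6 and 59.4 RPKM in KL and 89.6 and 128 RPKM in KLG4 (0.90, SE 0.25). Cd274, which encodes PD-L1, was abundant and followed the interferon genes, at 876 and 133 RPKM in KL and 481 and 473 RPKM in KLG4. Nectin2, a ligand of TIGIT, was the single member at the study threshold, lower, at 1.02 and 2.87 RPKM in KL and 0.340 and 0.627 RPKM in KLG4, and it passed the filter through KL alone. Of 13 tested, 5 were above and 1 below both KL libraries (25.4% and 19.1% over all genes), and the median was 0.08 against each KL library, 0.24 against both and 0.10 without KLG4 replicate 1.

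Lipid, ferroptosis and iron genes had no common direction. Of 21 tested genes of triacylglycerol synthesis and lipid droplets, 4 were above and 1 below both KL libraries (25.4% and 19.1% over all genes), and the median was 0.09 against KL replicate 1 and -0.04 against KL replicate 2. Dgat2, which makes triacylglycerol, was at 15.1 and 13.5 RPKM in KL and 14.7 and 21.3 RPKM in KLG4. Scd1, the desaturase that makes monounsaturated fatty acids, was the member at the study threshold, at 4.44 and 6.70 RPKM in KL and 1.87 and 2.92 RPKM in KLG4 (-1.19, SE 0.36). Of 21 lipid-associated macrophage genes, 4 were above and 6 below (the same shares apply), none at the study threshold, and the median was -0.06 and -0.25 against the KL replicates in turn. Abca1, the cholesterol exporter, was at 10.8 and 8.68 RPKM in KL and 16.7 and 20.7 RPKM in KLG4 (0.94, SE 0.24).

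Of 22 genes that suppress ferroptosis or counter oxidants, 7 were above and 7 below both KL libraries (25.4% and 19.1% over all genes), with a median of -0.05 against each KL library. Slc3a2, the heavy chain of the cystine importer, was at 120.5 and 88.1 RPKM in KL and 193 and 156 RPKM in KLG4 (0.75, SE 0.25). Its partner Slc7a11 was nearly level, at 53.1 and 55.5 RPKM in KL and 61.1 and 58.0 RPKM in KLG4. Prdx1, a peroxiredoxin, was the member at the study threshold, at 29.4 and 65.4 RPKM in KL and 20.3 and 17.5 RPKM in KLG4 (-1.21, SE 0.42), and KL replicate 2 was again the highest. Of 11 iron handling genes, 6 were above and 2 below (25.4% and 19.1%), 1 of the 6 having passed the filter through KLG4 alone, with medians of 0.15 and 0.31 against KL replicates 1 and 2. Tfrc, the transferrin receptor that takes up iron, was at 3.30 and 3.13 RPKM in KL and 5.53 and 6.25 RPKM in KLG4 (0.85, SE 0.23), and Slc40a1, the exporter ferroportin, was also higher, at 1.81 and 1.39 RPKM against 2.80 and 3.001 RPKM (0.83, SE 0.29).

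Most tested transcripts of AT2 cells and of epithelia in general were lower in both KLG4 libraries than in both KL libraries. Of the AT2 markers, 7 of 9 tested were below both KL libraries (19.1% over all genes) and 6 met the study threshold (3.07%), with a median of -2.35, -1.66 against KL replicate 1 and -2.92 against KL replicate 2. Of the 9, 1 passed the filter through KL alone, and it was not among the 6 at the study threshold. Napsa, the aspartic protease napsin A, lay the other way, at 3.71 and 4.06 RPKM in KL and 4.74 and 5.39 RPKM in KLG4. Sftpc, surfactant protein C, was at 71.7 and 173 RPKM in KL and 22.9 and 33.7 RPKM in KLG4. The summed level of the list was 165.7 and 397.8 RPKM in KL and 43.3 and 78.0 RPKM in KLG4. Of the general epithelial markers, 7 of 8 were below (19.1% over all genes), with 5 at the study threshold (3.07%), a median of -1.76 against KL replicate 1 and -3.29 against KL replicate 2 and summed levels of 80.4 and 276 RPKM in KL and 19.5 and 62.7 RPKM in KLG4. Of the 8, 2 passed the filter through KL alone, and of the other 6, 5 were below and 3 met the threshold. The epithelial median against both KL libraries was -2.62, and it was -1.46 without KLG4 replicate 1 and -3.28 without KLG4 replicate 2. Krt18, a keratin of simple epithelia, was at 30.3 and 104 RPKM in KL and 2.55 and 18.3 RPKM in KLG4. Of the AT1 markers 4 of 7 were below, Vegfa was above, and 3 met the study threshold in the lower direction, and of the endothelial markers 4 of 6 were below and 3 met it (19.1% and 3.07% over all genes). Leaving out the AT1 gene and the 2 endothelial genes that passed the filter through KL alone, 3 of 6 and 2 of 4 were below, with 2 and 1 at the threshold. The summed levels of these lists did not separate the groups, at 218.6 and 347.2 RPKM in KL and 408.4 and 322.0 RPKM in KLG4 for AT1, where Vegfa made up most of the sum, and at 31.9 and 60.2 RPKM against 27.4 and 34.1 RPKM for endothelium. Airway epithelial markers summed to 23.0 and 97.9 RPKM in KL and 24.6 and 25.9 RPKM in KLG4, with none of the 3 tested genes separated. Cdh5, VE-cadherin, was at 3.82 and 9.26 RPKM in KL and 1.11 and 1.94 RPKM in KLG4. Fibroblast markers reached 1 RPKM only in KL replicate 2, where 5 of the 10 did.

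The mitochondrially encoded genes had the most uniform difference of all lists. All 13 were below both KL libraries in both KLG4 libraries (19.1% over all genes), and 12 met the study threshold (3.07%), with a median of -1.19 against KL replicate 1 and -2.29 against KL replicate 2. mt-Co1, a subunit of cytochrome c oxidase, was at 3052 and 7015 RPKM in KL and 775 and 1181 RPKM in KLG4 (-2.27, SE 0.48). Reads of these genes may be shared with nuclear copies. KL replicate 2 was the highest library for 12 of the 13, for 8 of the 9 AT2 markers and for 7 of the 8 epithelial markers (41.5% over all genes). The part of these transcripts in the other results was not tested.

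The other lists were described in the same way, against 25.4% of all genes above and 19.1% below both KL libraries. Of 19 immediate early genes, 9 were below both KL libraries and 2 above (medians -0.22 and -0.44 against KL replicates 1 and 2), with Egr1 at 57.9 and 80.4 RPKM in KL and 41.6 and 42.2 RPKM in KLG4. Of 10 heat shock genes 3 were below and 0 above (medians 0.03 and -0.69). Of 15 efferocytosis genes 4 were above and 3 below, and Gas6, the bridging ligand of the TAM receptors, met the study threshold but passed the filter through KL alone, at 1.40 and 4.84 RPKM in KL and 0.361 and 0.679 RPKM in KLG4. The medians of that list were 0.16 and -0.16. Of 14 complement genes 3 were above and 1 below, of 13 lysosomal proteases 3 and 4, of 7 Fc receptors 0 and 1, and of 20 glycolysis and hypoxia genes 2 and 5. Their medians against KL replicates 1 and 2 lay between -0.32 and 0.28. None of these last 4 lists had a member at the study threshold. Of 7 chemokine receptors 2 were above and 0 below (medians 0.28 and 0.11), of 13 monocyte markers 3 and 2 (medians 0.19 and -0.21), and of 13 alveolar macrophage markers 3 and 2 (medians 0.11 and -0.49). Of the 2 monocyte markers below, 1 met the study threshold (3.07% over all genes), and it passed the filter through KL alone. The signs of the monocyte and alveolar macrophage medians thus turned on the KL library, and on the KLG4 library as well. Against both KL libraries, the alveolar macrophage median was 0.21 without KLG4 replicate 1 and -0.73 without KLG4 replicate 2. The monocyte median was -0.25 and 0.09 in turn.

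The remaining marker lists had few members with values, and the same shares over all genes apply to them. Of 10 dendritic cell markers 4 had values and 3 were tested, all overlapping between groups, and of 10 airway epithelial markers 3 were tested and overlapped as well. The 5 plasma cell genes tested had 0 above and 2 below, the 3 erythroid genes 0 and 2, and the 3 cardiac genes 0 and 2, of which 1 erythroid and 1 cardiac gene passed the filter through KL alone. Of B cell markers 1 of 10 had values, Cd22, an inhibitory receptor, and of eosinophil and basophil markers 1 passed the filter, Prg2, with both KLG4 libraries above both KL libraries in each of these. Myh7, a cardiac myosin, was at 5.28 and 14.8 RPKM in KL and 0.206 and 2.73 RPKM in KLG4.

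Single libraries held genes of their own, given as a description. In KL replicate 1 the genes farthest above the other 3 libraries were Ubd, Gbp4, Gbp5, Cxcl10, Gbp9 and Tgtp2, which interferon gamma induces. Ubd, a ubiquitin-like protein, was at 21.6 RPKM there and at 2.28, 2.14 and 0.248 RPKM in KL replicate 2 and the KLG4 libraries. In KL replicate 2 they were Pf4, Ms4a4a, Igfbp4, Ckb, Cd72 and Mgp. Ms4a4a, a membrane protein of macrophages, was at 96.1 RPKM there against 10.8, 9.18 and 6.21 RPKM. In KLG4 replicate 1 they were Ighv1-72, Mid1, Igkv8-21, Srxn1, Slc24a1 and Ppp1r16b, of which the immunoglobulin segments are uncertain because of near-identical copies. Srxn1, sulfiredoxin, was at 74.1 RPKM there against 34.4, 34.1 and 38.2 RPKM. In KLG4 replicate 2 they were Prg2, Camp, Enah, Klhl6, Adgb and Zhx2. Prg2, the major basic protein of eosinophils, was at 11.5 RPKM there against 2.12, 1.26 and 3.66 RPKM.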

How the data were processed

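Tumor-lung cells were profiled by poly(A) RNA sequencing with a kit that does not keep strand. Per the methods of the study and the labels, the authors trimmed paired-end reads with Trim Galore 0.6.4, aligned them to GRCm38 with HISAT2 2.0.5, counted them per gene with featureCounts 2.0.0 and deposited RPKM for each library. The deposited columns of fold changes and p-values were not used.

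Here the 4 libraries labelled MDMs were compared with limma 3.58.1 in R 4.3.3 (two-sided, with a mean-variance trend and Benjamini-Hochberg adjustment) on log2(RPKM + 0.1), for genes that reached 1 RPKM in 2 or more libraries. Fold changes on this scale understate those of low genes. Just inside the filter lay Pgls at 1.00 RPKM and just outside it Smarcd1 at 0.999 RPKM in their second-highest library. Multiplied by gene length, the RPKM values of the 12588 genes with a length (93.9% of 13407) came out as whole reads within 0.05 of a read up to 2000 reads, which gave the depth and the reads tested with limma-voom. Mates appeared to be counted separately for most pairs. The 19 names turned into dates were not named.

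Named genes were the 12 with the widest gap between groups in each direction among genes at the study threshold with at least 5 RPKM in the higher group (clone names and unnamed models left out), the 6 farthest above the other 3 in each library, the 10 most abundant, those of the Gpx4 neighbourhood, and members of 43 lists (18 of cell markers). Some genes that these rules name are not reported here. Genes and lists were chosen with earlier results of these data known. Coordinates are GENCODE M21 (GRCm38), where 99.97% of 15919 genes of the deposited table overlapped and 84.9% had the same ends. Replicate numbers did not pair the libraries (correlation of same-numbered deviations 0.054). The 14 alternatives were another pseudocount, filter, scaling, trend or tool, a replicate block and leaving out each library. The fits were tested on simulated data. Apart from levels of the TRM libraries, the remaining 13 samples were not used here.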

Additional observations from a re-analysis of the deposited data

Results flagged for a closer look

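The libraries labelled TRMs came from the same kind of lungs and allowed the same contrast, in a table normalised separately and with a median difference of 0.38 over 10990 genes. Mitochondrially encoded genes took 13.2% and 9.17% of reads in the TRM libraries of KL and 1.43% and 2.40% in those of KLG4. Of 126 genes of the text tested in both tables, 11 had every KLG4 library on one side of the KL libraries in the MDM table and on the opposite side in the TRM table, as had the means of 4 of 36 lists. Over all 9283 genes tested in both tables this held for 667 (7.19%), a share near that of the 126. These differences between the libraries of the MDM and TRM labels were not tested, and the MDM values rest on 2 KL libraries that lie far apart.

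Gpx4, the target of the allele, was 0.76 higher in KLG4 among MDM libraries and 0.68 lower among TRM libraries (-0.68), 1.44 apart on the log2 scale. Mbd3, in the same neighbourhood, differed by -0.66 and 0.21 (-0.87 apart), and 0.21 is below the TRM median over all genes. Csf3r, the G-CSF receptor, differed by 0.47 and -0.93 (1.40 apart).

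MHC class II genes had a list mean of -0.91 in MDM and 0.21 in TRM libraries (-1.11 apart). H2-Aa, at -1.06 and 0.20, was -1.26 apart, and Cd74, at -0.85 and 0.19, was -1.03 apart. These TRM values too are below the TRM median over all genes, so that relative to it they were not higher in KLG4. Among secreted factors, Cxcl16 differed by -1.06 and 1.32 (-2.38 apart) and Pf4, platelet factor 4, by -1.92 and 0.99 (-2.92 apart), and the mean of the chemokine ligand list was -0.90 apart. Ckb, the brain creatine kinase, was -2.61 apart, the interferon-inducible Gbp9 -1.94, Mki67 -1.40 and Socs3 -1.02. The means of the lipid-associated macrophage and the immediate early lists were each -0.78 apart. The TRM values of Gbp9 (0.43) and of the immediate early list (0.46) were close to the TRM median of 0.38 over all genes. Each value given as apart includes this shift of the TRM table.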

How the results depend on the processing

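A pseudocount of 1 left 279 genes past an unadjusted p of 0.05 and 2-fold (56 higher), no filter gave 688 (549 lower), and a mean of at least 5 RPKM gave 158 (35 higher, 123 lower). With that last filter the groups did not overlap for 2675 genes (1655 higher, 1020 lower). Limma-voom on recovered reads gave 67 higher genes. Genes at least 2-fold from every other library numbered 85 and 805 in KL replicates 1 and 2 and 30 and 30 in KLG4 at a pseudocount of 1, were 83, 568, 27 and 31 with a mean of at least 5 RPKM, and with no filter were 2034 in KL replicate 2 and 137 in KLG4 replicate 1.

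Replicate numbers did not pair the libraries. With a replicate block as a term, 164 genes were higher at the study threshold and 0 passed an adjusted p of 0.05 in limma. Leaving out each library in turn gave 0 to 2682 genes past an adjusted p of 0.05, with the largest count without KL replicate 1, and 184 to 2087 at the study threshold (29 to 805 higher, 149 to 1282 lower). Groups did not overlap for 6331 to 9317 genes (3433 to 4721 higher, 2898 to 4713 lower), a count that must grow with 3 libraries.

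Of 344 recalculated values of named genes, 331 kept direction and side of the threshold. Each of the others kept its direction. Ccdc80 fell below 2-fold at 0.97 with a pseudocount of 1 and at 0.98 in scaling outside the mitochondrial genes, and Mnt at 0.99 with a pseudocount of 1. KL replicate 2 had the fewest reads, 10.4 M (megareads), and the part of depth in the spread of the KL libraries was not tested.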

Other observations

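Genes named as ribosomal proteins, a group chosen after the values were seen, were mostly lower in KLG4. Of 81 tested, 68 had both KLG4 libraries below both KL libraries and 1 above (19.1% and 25.4% over all genes), but 2 met the study threshold in the lower direction (3.07% over all genes). The median was -0.63, -0.21 against KL replicate 1 and -1.01 against KL replicate 2, and KL replicate 2 was the highest library for 74 of the 81 (41.5% over all genes). Rps15, given with the Gpx4 neighbourhood, is one of them.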
